A study of Homo sapiens with 6 samples.

Results

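The regions described here were 495 stretches of distal chromatin that were called open in all 3 MM.1S libraries treated with CB-6644 and in none of the 3 libraries treated with DMSO. They were selected on those peak calls and on their position, since a region counted as distal when it lay more than 1000 bp from every start site of a protein-coding transcript. Of 89196 merged regions in the series, 72413 were distal, and the CB-6644-only class made up 0.684% of these. The mirror class, called in all 3 DMSO libraries and in no CB-6644 library, held 3841 distal regions, or 5.3%. Because the peak calls chose the members, the number of members and their presence in the CB-6644 libraries are a description and carry no test.

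MM.1S is an established human multiple myeloma cell line, a cancer of plasma cells, in which a translocation to the immunoglobulin heavy-chain locus drives high expression of the transcription factor MAF. Both groups were cultures of this 1 line, and the treated group received 120 nM CB-6644 for 72 h while the control group received the DMSO vehicle. The inhibitor blocks ATP hydrolysis by the AAA+ proteins RUVBL1 and RUVBL2, which sit in chromatin remodeling complexes such as INO80, SRCAP and TIP60. Accessibility was measured by Omni-ATAC, in which a transposase cuts and tags open DNA, and the comparison addressed where chromatin was reorganized after RUVBL1/2 inhibition. The labels do not say whether the replicates were separate cultures, so the spread between libraries may be technical. In a bulk library, a site opened a little in all cells and a site opened fully in a few cells cannot be told apart.

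Distal regulatory elements, or enhancers, are short nucleosome-depleted stretches where sequence-specific transcription factors bind and act on promoters at a distance. In plasma cells the known factors include IRF4, which binds interferon-type elements, E proteins such as TCF4, which bind E-boxes of the form CANNTG, NF-kB, which binds kB sites, and, in myelomas that express them, MAF proteins, which bind elements built around the half-site TGCTGA. A promoter peak in all 6 libraries was found at 16 of 20 plasma cell genes, 13 of 20 genes of the B-cell program, 4 of 16 T and NK cell, 2 of 14 myeloid and 3 of 12 stromal marker genes, and at 63.7% of all protein-coding genes, so the B-cell share (65%) was close to that of any gene.

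The 6 peak lists differed in ways that bear on the rule. Peak numbers ran from 58563 to 71781 with CB-6644 and from 65569 to 79020 with DMSO. The lowest background recovered from the fold and −log10 p values, divided by the length of the shortest peak, ranged from 3.20 to 9.08 tags per kb. It was read as the genome-wide background of the peak caller, which is also an inference. The lowest value belonged to CB-6644 replicate 2. In that library and in DMSO replicate 1 the shortest peaks were 65 and 91 bp long, against 131 to 152 bp in the other 4. The shortest peak was read as the caller's estimate of fragment length, which is an inference from the lists, and on that reading these are called short-fragment and long-fragment libraries below.

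The strongest members are shown first, as the hg38 plus strand within 100 bp of the highest summit. Members were ordered by their weakest library, using the percentile of their −log10 p among all peaks of that library, where 100 is the strongest. Capitals mark matches, on either strand, to the MAF element TGCTGAC, the kB site, the E-boxes CAGGTG and CAGCTG, and the AP-1 element TGANTCA. These 6 were chosen because they lead the order or hold the matches on which the results turn.

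ZNF281 region, chr1:200512377-200512577: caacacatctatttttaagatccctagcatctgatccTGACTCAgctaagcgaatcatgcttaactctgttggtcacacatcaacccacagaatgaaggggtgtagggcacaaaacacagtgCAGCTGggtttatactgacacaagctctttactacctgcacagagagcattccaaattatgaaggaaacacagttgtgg
CCDC54 region, chr3:107143336-107143536: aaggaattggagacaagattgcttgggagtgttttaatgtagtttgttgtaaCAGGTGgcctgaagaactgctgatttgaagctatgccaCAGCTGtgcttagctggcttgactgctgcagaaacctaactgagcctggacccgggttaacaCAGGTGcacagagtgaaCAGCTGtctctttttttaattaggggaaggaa
PTPRF region, chr1:43569236-43569436: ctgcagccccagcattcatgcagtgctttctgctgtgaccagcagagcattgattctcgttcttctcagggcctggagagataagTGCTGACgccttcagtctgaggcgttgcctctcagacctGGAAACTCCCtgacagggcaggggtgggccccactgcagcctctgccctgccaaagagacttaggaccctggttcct
RAB30 region, chr11:83025291-83025491: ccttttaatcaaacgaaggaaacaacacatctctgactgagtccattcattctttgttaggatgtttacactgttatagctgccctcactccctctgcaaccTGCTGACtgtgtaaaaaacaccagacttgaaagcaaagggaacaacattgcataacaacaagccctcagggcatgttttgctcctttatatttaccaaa
P4HTM region, chr3:48974618-48974818: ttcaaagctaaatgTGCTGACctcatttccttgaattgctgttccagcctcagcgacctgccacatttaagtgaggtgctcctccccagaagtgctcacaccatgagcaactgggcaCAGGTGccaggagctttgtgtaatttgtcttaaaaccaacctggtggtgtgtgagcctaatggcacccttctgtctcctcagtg
CITED4 region, chr1:40844209-40844409: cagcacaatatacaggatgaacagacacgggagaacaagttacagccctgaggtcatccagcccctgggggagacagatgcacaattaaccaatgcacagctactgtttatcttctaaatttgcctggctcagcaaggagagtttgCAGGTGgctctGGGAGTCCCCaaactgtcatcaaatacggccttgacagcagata

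The ZNF281 sequence held an AP-1 element and a CAGCTG E-box, and the CCDC54 sequence held both forms of E-box in 2 copies each. The PTPRF sequence paired a MAF element near its centre with a kB site, the CITED4 sequence paired a kB site with a CAGGTG E-box, and the P4HTM sequence paired a MAF element with a CAGGTG E-box. The RAB30 sequence held a single MAF element next to its centre. A match is a match of letters and does not show that a factor was bound.

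The leading member lay between genes on chromosome 1 (200512321 to 200512578), 102 kb from the nearest start site, that of ZNF281, a zinc-finger transcription factor. Its percentile was 70.1, 70.8 and 62.0 in CB-6644 replicates 1, 2 and 3, with 74, 35 and 69 tags piled up at the summit. It was followed by a region on chromosome 3 (107143311 to 107143549), 234 kb from CCDC54, at the 63.8th, 77.0th and 61.2nd percentile. Both stood above the middle of every CB-6644 list, yet a DMSO peak lay only 1921 bp from the first and 950 bp from the second.

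The third, on chromosome 1 (43569226 to 43569494), fell in an intron of PTPRF, which encodes a receptor-type protein tyrosine phosphatase, at the 59.1st, 69.9th and 55.7th percentile. The fourth, on chromosome 2 (42474876 to 42475049), fell in an intron of KCNG3, a modifier subunit of voltage-gated potassium channels, at the 52.8th, 70.9th and 55.3rd percentile. The fifth, on chromosome 11 (83025277 to 83025663), fell in an intron of RAB30, a Rab GTPase of the Golgi, at the 59.3rd, 52.6th and 51.8th percentile. These 5 were the only members above the 50th percentile in all 3 CB-6644 libraries.

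The next 7 had a lowest percentile below 50 but stood close to it. They were an intron of the ubiquitin ligase gene ARIH2 near P4HTM, which encodes a prolyl hydroxylase, at the 64.0th, 49.7th and 56.3rd percentile, an intron of the corepressor gene NCOR1 at the 52.4th, 47.7th and 51.9th, and regions near CDH18, CCDC97, SLC13A1, CCNG2 and C8orf34. The CCNG2 region, 10.4 kb from the start site of this cyclin G2 gene, stood at the 56.5th, 59.1st and 48.5th percentile and had a DMSO peak 680 bp away. The CCDC97 region, in an intron of the RNA-binding protein gene HNRNPUL1, had a DMSO peak at 40 bp, the closest among these 12.

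Most members were weak peaks. The median percentile was 23.3 in CB-6644 replicate 1, with a range of 1.11 to 70.1, 27.6 in replicate 2, with a range of 0.299 to 77.0, and 20.3 in replicate 3, with a range of 1.18 to 72.8. The median summit pile-up was 21, 11 and 23 tags, and the median fold enrichment over local background was 10.7, 9.11 and 10.1. In at least 1 of the 3 libraries, 154 members were below the 10th percentile, and 66 members had 20 or more tags in all 3. For comparison, DMSO-only distal regions had a median of 24.5 for the mean percentile over their 3 libraries against 23.5 for the members, and distal regions called in all 6 libraries had 58.8, so members and DMSO-only regions were similarly weak in their own libraries.

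**Figure D1:**
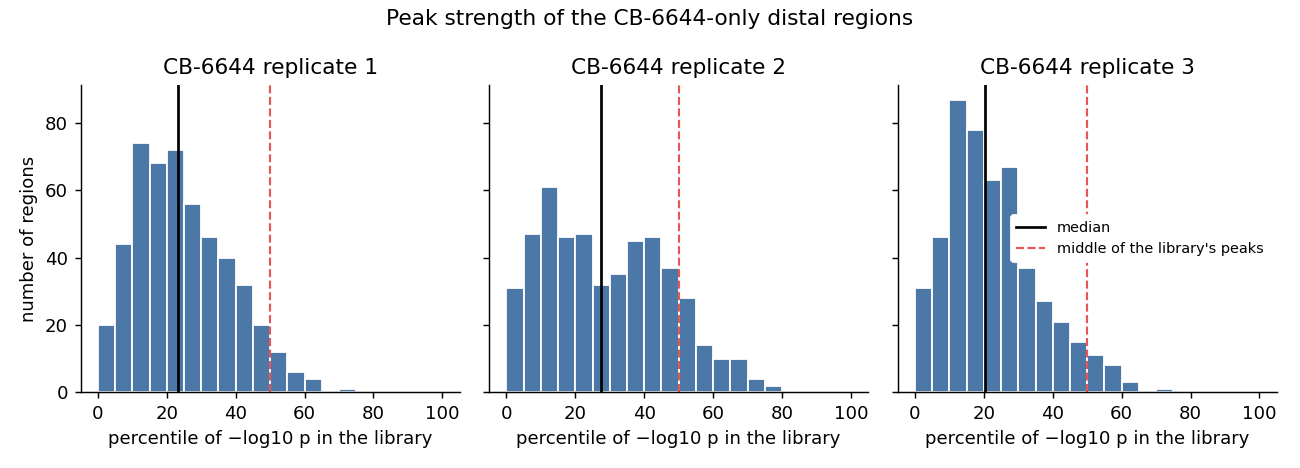
Number of CB-6644-only distal regions (y axis) by percentile of −log10 p (x axis) in each CB-6644 library, in steps of 5. Most of the 495 regions lie left of the dashed line at the 50th percentile, with medians of 23.3, 27.6 and 20.3 (black lines), and only 23, 68 and 23 regions lie above it.

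Members were made by merging overlapping peaks, so summits lying close together were in large part set by the rule. The spread is not given for other classes and is a description only. The summits of the libraries lay within 50 bp of each other in 356 members (71.9%), with a median spread of 33 bp. The median merged width was 221 bp, from 140 to 824 bp. Across members, the −log10 p values of replicates 1 and 3 had a Spearman rho of 0.635, and each had a lower rho with replicate 2 (0.395 and 0.466), the short-fragment library. These correlations are over regions of shared libraries and are given as a description.

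At its edges the rule divided a continuous set of calls. There were 1026 distal regions with peaks in exactly 2 CB-6644 libraries and no DMSO library, and 433 of them lacked only CB-6644 replicate 2. A further 748 distal regions had peaks in all 3 CB-6644 libraries and in 1 DMSO library, which was DMSO replicate 1 for 470, replicate 2 for 162 and replicate 3 for 116. In that single DMSO library their peaks were weak, with a median percentile of 13.1, and in the CB-6644 libraries their median of the mean percentile was 27.2, against 23.5 for the members. The weakest members were regions near ZNF804A, EGFR and GOLM1, at the 0.299th, 0.627th and 0.673rd percentile in CB-6644 replicate 2, where their pile-ups were 4, 5 and 10 tags. The EGFR region had a DMSO peak 186 bp away.

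By distance, the members nearest to the promoter limit were regions 1122 bp from a NEGR1 start site, 1139 bp from SPRING1 and 1159 bp from SLC22A13. Just on the other side, and therefore not members, were 28 CB-6644-only regions at promoters, of which those of TYROBP (996 bp), GSDMA (973 bp) and PDIA6 (553 bp) lay closest to the limit.

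The rule removed any region that overlapped a DMSO peak, so only separate DMSO peaks nearby could be counted. A peak of any DMSO library lay within 200 bp of 7 members (1.41%), within 1 kb of 41 (8.28%) and within 50 kb of 459. The median distance was 8.32 kb. For DMSO-only distal regions and the nearest CB-6644 peak, the shares were 1.33% within 200 bp and 10.8% within 1 kb, with a median of 10.8 kb. The median distance to the nearest region called in all 6 libraries was 15.3 kb. A DMSO-only distal region was found within 50 kb of 81 members (16.4%). Members also lay apart from each other, with 12 pairs of neighbours within 50 kb and 1 pair within 1 kb.

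**Figure D2:**
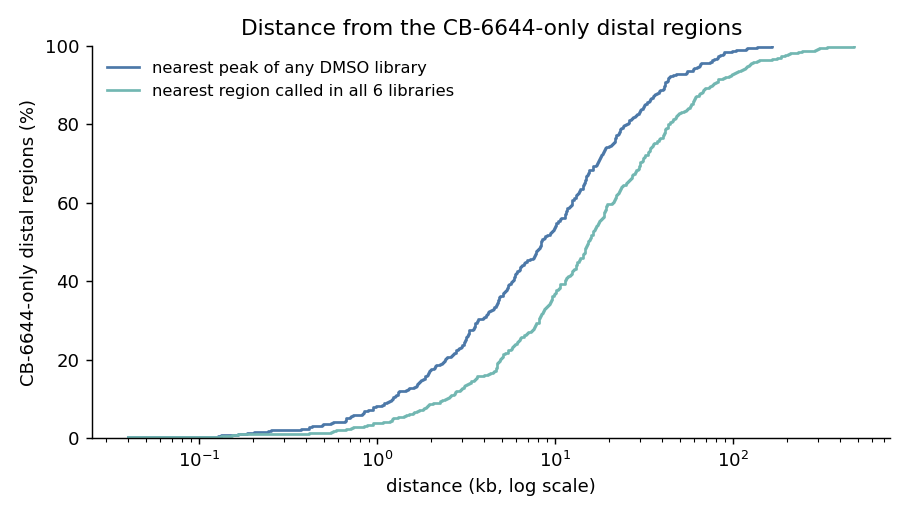
Cumulative share of the CB-6644-only distal regions (y axis, %) by distance in kb (x axis, log scale) to the nearest peak of any DMSO library and to the nearest region called in all 6 libraries. The curves pass their medians at 8.32 and 15.3 kb, and 8.28% of the regions lie within 1 kb of a DMSO peak.

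In the GENCODE annotation, 211 members (42.6%, 95% Wilson interval 38.3 to 47.0%) lay in introns of protein-coding genes, 175 (35.4%, 31.3 to 39.7%) lay between genes, 83 lay in genes of other types, 7 touched a coding exon and 19 touched a non-coding part of an exon. The median distance to a start site was 32.8 kb. As a comparison for rare calls, the members were set beside 3846 mixed distal regions. These were also called in exactly 3 libraries, but drawn from both groups. They were not matched to the members in strength or width. Their median of the mean percentile was 18.6, against 23.5 for the members, and their median width was 198 bp, against 221 bp. In these mixed regions 42.1% were intronic and 38.1% intergenic, with a median distance of 36.0 kb, and both shares lay within the members' intervals. The members were spread over chromosomes 1 to 22 and X, at 0.422 to 0.879% of the distal regions of each, and 0 of the 38 distal regions on Y were members.

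Base composition of the members was closer to that of shared chromatin than to that of DMSO-only regions. Median GC content within 100 bp of the summit was 48.3% in members, 47.3% in mixed regions and 49.8% in regions called in all 6 libraries, and it was 41.8% in DMSO-only distal regions. Despite this GC content, 25.7% of members (22.01 to 29.68%) had no CpG in that window, against 16.8% (15.6 to 18.0%) of mixed and 11.4% (11.1 to 11.8%) of 6-library regions. The DMSO-only share was 30.4%.

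Sequence was not used by the rule, so the matches near the summit are a separate feature of the members. All shares below are of regions with a match on either strand within 100 bp of the strongest summit. Their intervals treat regions as independent and cover counting error only, since regions are not replicates of the treatment.

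Elements of MAF proteins, basic leucine zipper factors, were found in 89 members. TGCTGAC occurred in 18.0% of members (14.8 to 21.6%), in 5.64% of mixed regions (4.96 to 6.42%), in 6.63% of 6-library regions and in 3.23% of DMSO-only regions. The same letters read in reverse, a control of equal base composition, occurred in 0 members (interval up to 0.770%) and in 0.572% of mixed regions. The reversed letters hold a CpG, which TGCTGAC does not, and occurred in 0.467% of all distal regions. They therefore give no matched level for the element. Within members the matches lay a median of 25 bp from the summit, and members with a match had higher median percentiles than those without, at 27.8, 32.5 and 23.4 against 22.1, 26.9 and 19.4 in replicates 1, 2 and 3. The element overlapped an AP-1 element in 8 of the 89 members that held it. Among the other regions that held it, the counts were 13 of 217 mixed, 159 of 1907 shared by all 6 libraries and 7 of 124 DMSO-only. Taken over all regions, the shares were 1.62% of members, 0.338% of mixed, 0.553% of 6-library and 0.182% of DMSO-only regions. Those shares also carry the frequency of the MAF element itself. The bases TCA, which extend it towards the palindromic form, followed 8.70% of the 92 sites in members, 5.80% of the 224 in mixed regions and 8.18% of the 1980 in 6-library regions.

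The half-site alone was more common still. TGCTGA, examined after the values of the 7-base element were seen, occurred in 237 members (47.9%, 43.5 to 52.3%), in 21.2% of mixed regions (19.9 to 22.5%) and in 15.7% of DMSO-only regions. By the base that follows, the members' shares were 8.69% for A, 18.0% for C, 19.4% for G and 11.5% for T, against 6.55, 5.64, 6.92 and 3.93% of mixed regions. The interval of the members lay above that of mixed regions for C, G and T and overlapped it for A. Among all 7-base words, those with the 3 largest differences between members and mixed regions were CTCAGCA (19.4 against 6.92%), GTCAGCA (18.0 against 5.64%) and CAGCTGC (19.8 against 8.09%). The first and the second of these words are half-sites on the opposite strand, and the third holds an E-box.

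E-boxes, the sites of basic helix-loop-helix factors, were the most frequent matches. CAGGTG, the form preferred by E proteins such as TCF4 and also bound by ZEB repressors, occurred in 205 members (41.4%, 37.2 to 45.8%), against 28.2% of mixed, 34.3% of 6-library and 22.2% of DMSO-only regions. CAGCTG occurred in 154 members (31.1%, 27.2 to 35.3%), against 16.2% of mixed, 20.4% of 6-library and 10.8% of DMSO-only regions. One or both forms were present in 298 members (60.2%) and in 39.5% of mixed regions. Unlike for MAF, members with CAGGTG had lower median percentiles than those without, at 22.1, 22.1 and 19.5 against 24.5, 29.1 and 21.3 in replicates 1, 2 and 3. For CAGCTG they were higher with a match, at 24.3, 29.4 and 21.5 against 22.6, 27.6 and 20.3. After weighting the other classes to the members' GC content, the share of CAGGTG in DMSO-only regions rose to 31.0%, and that of CAGCTG to 14.7%, both still below the members' intervals.

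The kB site, a 10-base element of NF-kB dimers, occurred in 50 members (10.1%, 7.75 to 13.1%). The share was 3.74% of mixed, 5.03% of 6-library and 1.90% of DMSO-only regions. Its reversed control gave 2.83% of members and 3.82% of mixed regions. The strongest members with a kB site were the PTPRF region and regions near ZBTB10, which encodes a zinc-finger protein, at the 48.6th, 48.5th and 47.1st percentile, and near CITED4, which encodes a coactivator-binding protein, at the 49.15th, 39.96th and 47.90th.

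Of the MAF element, the kB site and CAGGTG, at least 1 was present in 287 members (58.0%, 53.6 to 62.3%), against 34.8% of mixed regions and 26.1% of DMSO-only regions. MAF and CAGGTG matches occurred together in 40 members, kB and CAGGTG matches in 13, and MAF and kB matches in 4, the PTPRF region among them.

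IRF and CTCF elements were less frequent in members than in mixed regions. The IRF element, a pair of GAAA motifs 2 bases apart, occurred in 22 members (4.44%, 2.95 to 6.64%), against 10.5% of mixed and 17.5% of DMSO-only regions. Weighted to the members' GC content, these shares were 8.70 and 10.2%, and the reversed control occurred in 3.43% of members. The ATF4-CEBP composite element TGATGNAA occurred in 11 (2.22%, 1.25 to 3.93%), against 3.33% of mixed regions, which is within the interval, and 12.9% of DMSO-only regions. The CTCF element, a mark of insulator sites, occurred in 3 members (0.606%, 0.206 to 1.77%), against 9.18% of mixed and 7.70% of 6-library regions. It was also infrequent in DMSO-only regions (1.87%, 1.49 to 2.35%), whose interval overlapped that of the members.

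Among further elements, those of AP-1 were present in 15.4% of members (12.4 to 18.8%) and 423 of 3846 mixed regions (10.05 to 12.03%), and the intervals of 6-library (12.9%) and DMSO-only regions (12.2%) overlapped that of the members. The purine-rich element GAGGAAGT of PU.1 was present in 8.08% (5.99 to 10.8%) against 3.35%, and the forkhead element TGTTTAC in 8.69% (6.51 to 11.5%) against 3.77%. The reversed control of the forkhead element was present in 4.85% of members and 4.13% of mixed regions. RUNX elements (TGTGGTT) were present in 11.5% of members (8.99 to 14.6%) and 9.75% of mixed regions, a difference within the interval.

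**Figure D3:**
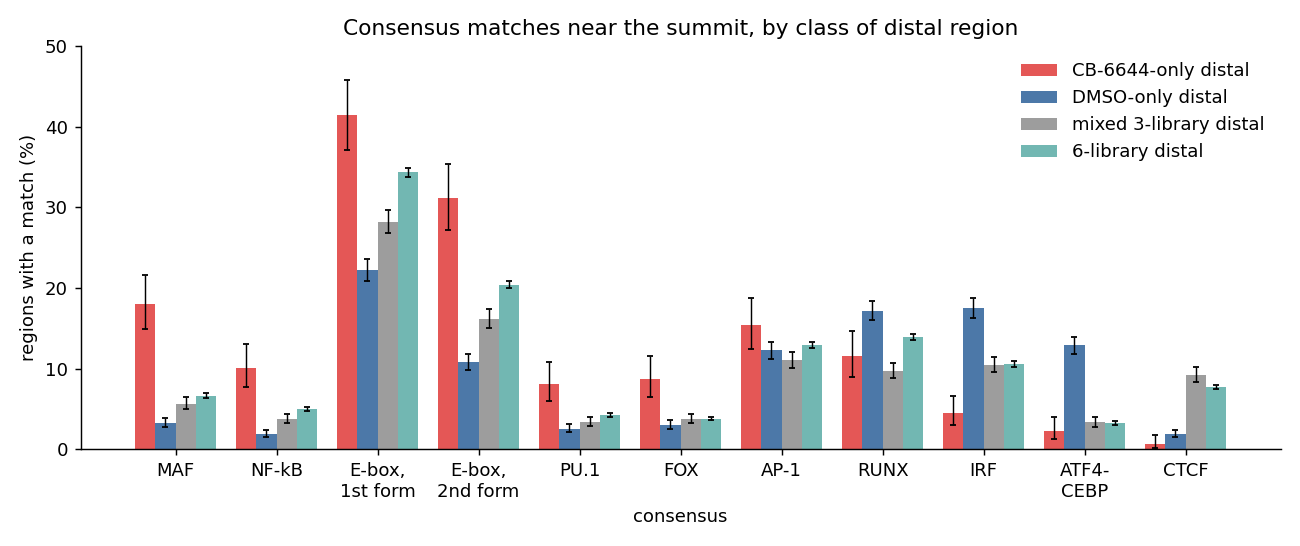
Share of regions with a consensus match within 100 bp of the summit (y axis, %), for 11 consensus sequences in 4 classes of distal region. Bars show the share and error bars its 95% Wilson interval. The 1st form of E-box is CAGGTG and the 2nd CAGCTG. CB-6644-only regions (red) stand highest for MAF (18.0%), NF-kB (10.1%) and both forms of E-box (41.4 and 31.1%) and lowest for IRF (4.44%) and CTCF (0.606%).

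The sequence features of the members were then examined in peaks that the rule had not used. A total of 28748 distal regions were called in all 6 libraries, and 1907 of them held the MAF element. In each library, the mean percentile of regions with an element was compared with that of regions without it, and the difference was compared between the groups by an exact two-sided permutation of the 6 libraries. With 3 against 3 libraries the smallest p this test can give is 0.1, so none of the 8 comparisons made could pass 0.05, and after Benjamini-Hochberg adjustment over the 8 the smallest was 0.16.

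Shared regions with a MAF element differed from those without by 3.76, 3.72 and 3.17 percentile points in CB-6644 replicates 1, 2 and 3, and by −2.04, −2.21 and −2.23 points in the DMSO libraries. They thus ranked above the regions without the element with CB-6644 and below them with DMSO. The sign differed between the groups in every library, and the groups differed by 5.71 points (exact permutation test, p = 0.1, adjusted p = 0.16). Within the 4 long-fragment libraries the difference was 5.68, and for the short-fragment pair it was 5.76. The regions with the element themselves had mean percentiles of 59.4, 59.4 and 57.8 with CB-6644 and 61.3, 59.0 and 56.4 with DMSO. These values overlapped. The difference is therefore relative to regions without the element and shows no rise in rank of those with it.

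Regions with a kB site, 1445 in number, behaved likewise. They differed from the rest by 4.45, 2.73 and 4.92 points in the CB-6644 libraries and by −0.807, −0.497 and −0.407 points in the DMSO libraries, and the groups differed by 4.60 (exact permutation test, p = 0.1, adjusted p = 0.16). It was 5.14 with long fragments and 3.53 with short ones. Here too the mean percentiles of the regions with the site overlapped, at 60.2, 58.5 and 59.5 with CB-6644 and 62.5, 60.6 and 58.1 with DMSO. For CAGGTG, found in 9866 shared regions, both groups were above 0, at 3.06, 4.91 and 2.94 points with CB-6644 and 2.34, 1.12 and 1.15 points with DMSO. The groups did not overlap and differed by 2.10 points (exact permutation test, p = 0.1, adjusted p = 0.16), and by 1.09 when regions were compared within 5 classes of GC content. The difference was 1.86 with long fragments and 2.57 with short ones. The groups overlapped with percentiles of fold enrichment (exact permutation test, p = 0.3) and with log2 fold enrichment (p = 0.3). Without CB-6644 replicate 2 they did not overlap, and the difference was 1.46 points (exact permutation test, p = 0.2). With groups of unequal size, a p above the smallest possible does not show overlap.

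For ATF4-CEBP and IRF elements the differences were negative. Shared regions with an ATF4-CEBP element, 935 in number, differed from the rest by −2.70, −5.55 and −3.05 points with CB-6644 and by 0.709, 2.53 and 3.33 points with DMSO, and the groups differed by −5.96 (exact permutation test, p = 0.1, adjusted p = 0.16), by −5.80 with long and −6.26 with short fragments. Regions with an IRF element, 3033 in number, differed from the rest by −1.30, −8.13 and −2.54 points with CB-6644 and by −1.62, 2.09 and 2.82 points with DMSO. The groups overlapped in this case (difference −5.09, exact permutation test, p = 0.2, adjusted p = 0.229), and each short-fragment library was the lowest of its group. Among long-fragment libraries the difference was −4.38, and in the short-fragment pair it was −6.51. Compared within GC classes it was −2.62, smaller in size, and there the groups did not overlap (exact permutation test, p = 0.1). Without CB-6644 replicate 2 the difference was −3.02. For AP-1 elements the values were 1.57, 0.599 and 0.840 points with CB-6644 and 0.555, 1.05 and 1.46 points with DMSO, and the groups overlapped (difference −0.0189, exact permutation test, p = 1).

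Of the elements outside these 6, whose values are given without a test because they were looked at after the others, the differences of the consensus sequences found in at least 20 shared regions ran from −2.66 points for STAT to 3.31 for PU.1. The groups differed by 3.29 points for CAGCTG and by 4.11 for the half-site TGCTGA, both relative to regions without a match. For CTCF, the least frequent of the named elements in members, they differed by 1.68.

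**Figure D4:**
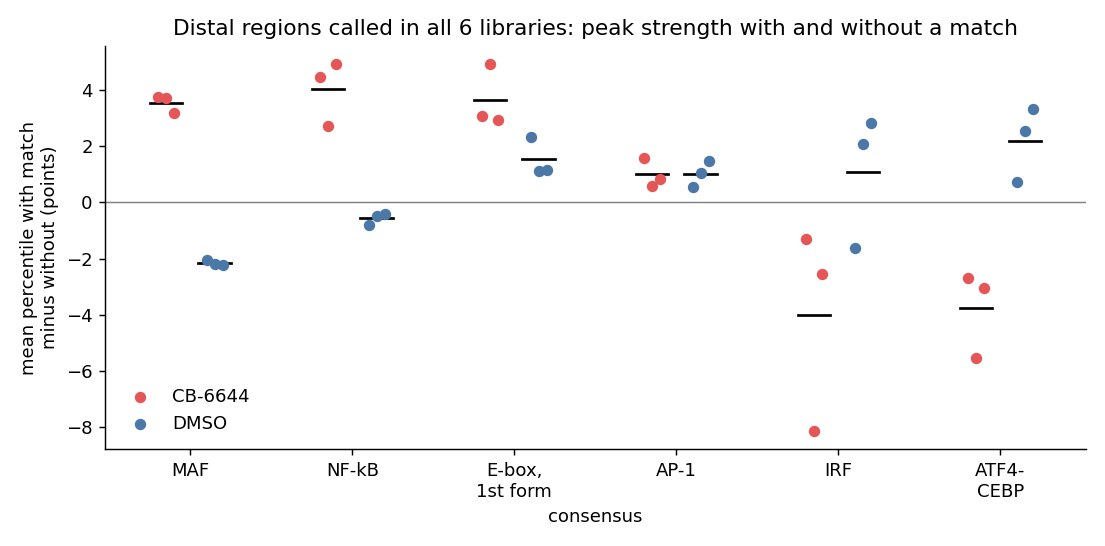
Difference in mean percentile of −log10 p between regions with and without a match (y axis, percentile points) for 6 consensus sequences, over 28748 distal regions called in all 6 libraries. Each point is 1 library and the black line is the mean of the 3. For MAF the CB-6644 libraries lie between 3.17 and 3.76 and the DMSO libraries between −2.23 and −2.04, while for AP-1 the groups overlap.

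Chromatin around the members was compared in the same way. Of the shared distal regions, 867 lay within 50 kb of a member, and they stood 1.47, 2.11 and 1.95 points above the others with CB-6644 and 0.799, 0.692 and 0.639 points above them with DMSO. The groups did not overlap, and the difference was 1.13 points (exact permutation test, p = 0.1, adjusted p = 0.16), or 1.04 with long and 1.31 with short fragments. They overlapped with percentiles of fold enrichment (exact permutation test, p = 0.3) and with log2 fold enrichment (p = 0.2). At 10 kb the sign turned, with a difference of −0.653, so no direction holds for the neighbourhood in general. Promoters shared by all libraries at the genes nearest to members, 393 in number, differed from other shared promoters by −3.98, −3.32 and −4.01 points with CB-6644 and by −2.91, −2.96 and −3.76 points with DMSO, so they ranked lower in all 6 libraries, and the groups overlapped (difference −0.558, exact permutation test, p = 0.2, adjusted p = 0.229). The difference was −0.634 with long and −0.407 with short fragments, and −0.289 within GC classes.

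By gene, 419 members had a start site within 200 kb, and these were divided over 404 genes. No gene was nearest to more than 2 members, and 15 genes had 2. By mean percentile these were led by ZNF281, RAB30, LY86, RALY, SND1 and THRB. The second region of RAB30 lay in an intron 12033 bp from its start site and was weaker than the first, at the 24.5th, 22.1st and 18.3rd percentile. LY86, which encodes the MD-1 partner of a B-cell receptor of the Toll-like family, had an intronic region 3.44 kb from its start site at the 21.1st, 13.5th and 27.5th percentile and another, 114 kb away, at the 42.7th, 65.3rd and 35.6th. RALY and SND1, which encode RNA-binding proteins, each held both of their regions in introns, and 1 region of each had a MAF element. The thyroid hormone receptor gene THRB had a MAF element and E-box in 1 region and an E-box in the other.

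Members were also located relative to 13 lists of genes that bear on myeloma cells and on RUVBL1/2. Of 303 listed genes, 17 (5.61%) had a member in the gene or within 50 kb, where 756 of 20007 protein-coding genes (3.78%) did. A region near several listed genes counted for each, as for IRF4 and DUSP22 and for BIRC2 and BIRC3. The lists were small and the share is given as a description. Listed genes with a member were not measured here for expression.

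Among plasma cell genes, 3 of 20 had a member. The region in an intron of IRF4, the master regulator of the plasma cell program, on chromosome 6 (397703 to 397868) stood at the 33.8th, 54.4th and 22.8th percentile and held a kB site. Peaks of all 3 DMSO libraries lay 432 to 490 bp from it, and the nearest DMSO-only region lay 432 bp away. SLAMF7, a surface antigen of plasma cells, had a region 49.3 kb away with a MAF element and an E-box at the 26.0th, 5.49th and 32.3rd percentile, and CD27, a TNF receptor family member, had one 12.2 kb away with both forms of E-box at the 37.5th, 10.6th and 35.2nd percentile. In CB-6644 replicate 2 the IRF4 region stood above the middle of the list, and the SLAMF7 and CD27 regions were near its bottom.

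In the list of 30 NF-kB pathway genes, 2 neighbours had members, BIRC2 and BIRC3, which encode inhibitors of apoptosis that regulate NF-kB signaling. An intergenic region 16.4 kb from BIRC3 and 46.1 kb from BIRC2, at the 41.7th, 20.9th and 32.5th percentile, had a forkhead element and no kB site. Another region, 42.7 kb from BIRC2, stood at the 22.1st, 10.6th and 18.3rd percentile. It had a MAF element and both forms of E-box. Of 16 MAF factors and MAF targets, 3 had a member, namely an intronic region of MAFG, which encodes a small MAF protein, at the 20.8th, 48.8th and 29.5th percentile, an intronic region of BACH1, which encodes a partner of small MAF proteins, at the 27.71st, 49.20th and 14.96th percentile, and 2 weak regions near the kinase gene NUAK1. None of these 4 regions held TGCTGAC.

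The p53 target list had 2 of 24 genes with a member. MDM2, which encodes the ubiquitin ligase of p53, had an intronic region at the 3.93rd, 5.49th and 3.75th percentile, and CCNG1, which encodes cyclin G1, had one that touched a coding exon at the 30.0th and 39.8th percentile in replicates 1 and 2 and lower in replicate 3. Of 36 MAPK genes, 2 had a member: the phosphatase gene DUSP22, with an intronic region at the 15.5th, 23.4th and 19.3rd percentile and a PU.1 element, and ATF3. Of 30 genes of E2F and DNA replication, CDK1, the mitotic kinase gene, had a region 22.4 kb away on chromosome 10 (60817256 to 60817445) with a MAF element, at the 34.3rd, 34.0th and 23.9th percentile. Among 34 genes of RUVBL1/2-containing complexes, INO80B and ZNHIT1 had a member, 48.9 and 45.9 kb away. The 40 interferon response genes, the 11 genes of E proteins, ID and ZEB factors and the 14 myeloid and 12 stromal markers had 0 members within 50 kb, and of the 16 T and NK cell markers TBX21 had one.

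The windows of the IRF4 and CDK1 members are shown because each lies in or near a gene of the myeloma or proliferation program. Each also holds an element with a higher share in members than in mixed regions. No link between these regions and the genes was measured, and a peak of DMSO replicate 1 lay 469 bp from the CDK1 region. The windows span 100 bp on each side of the highest summit on the hg38 plus strand, with matches to the kB site or the MAF element in capitals.

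IRF4 region, chr6:397710-397910: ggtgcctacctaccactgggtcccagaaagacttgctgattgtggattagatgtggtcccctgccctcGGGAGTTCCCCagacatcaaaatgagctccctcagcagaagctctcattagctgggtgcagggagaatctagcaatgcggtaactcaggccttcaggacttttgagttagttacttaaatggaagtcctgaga
CDK1 region, chr10:60817226-60817426: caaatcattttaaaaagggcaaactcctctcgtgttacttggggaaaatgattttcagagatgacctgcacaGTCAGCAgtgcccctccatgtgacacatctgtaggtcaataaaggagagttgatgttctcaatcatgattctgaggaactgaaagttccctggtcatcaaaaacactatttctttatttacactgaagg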

How the data were processed

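MM.1S cells were profiled in 6 Omni-ATAC libraries, 3 treated with CB-6644 and 3 with DMSO, grouped by their labels. The submitters' processing notes name Bowtie2 2.4.2, MACS3 3.0 and hg38, and peaks were called per library. The deposited fold enrichment is the ratio of summit pile-up to local background, and the deposited −log10 p and −log10 q belong to the summit, all made by the authors' peak caller without scaling between libraries. Percentiles were therefore taken within each list. Pile-up was recovered as the whole number that gave both the fold and −log10 p under a Poisson model, within 2e-05. This was done for peaks of −log10 p under 60 in the background values of the libraries, and for all peaks of the members. The lists hold no read totals, so counts were not tested, unlike in the study's own edgeR analysis.

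Only chromosomes 1 to 22, X and Y were used, and peaks were merged where they overlapped by 1 bp. Start sites were those of 89054 protein-coding transcripts (GENCODE release 44). Motifs were searched on both strands, for 20 consensus sequences. Named regions were the 12 with the highest lowest percentile, the 3 leading regions for MAF, NF-kB and CAGGTG, up to 12 near listed genes (with the others added to complete their lists), the 6 leading genes with 2 regions, and the regions at the limits of the rule. The regions, gene lists and motifs were chosen with earlier results of these data known. Scripts (Python 3.11.15, numpy 2.4.6, scipy 1.17.1, pandas 2.3.3, pysam 0.24.0, matplotlib 3.10.9) were tested on simulated data. Alternatives covered stricter and looser calls, summit windows, other start sites, each library left out, GC classes and a replicate block.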

Additional observations from a re-analysis of the deposited data

How the results depend on the processing

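Results are given against 495 members with a median lowest percentile of 14.1. With the 20000 strongest peaks of each library there were 516 regions, of which 0 overlapped a member. Their median lowest percentile was then 71.9, 47.9% had CAGGTG and 48.1% were intronic. With 2 of 3 CB-6644 libraries sufficient there were 1521 regions (percentile 10.1, 33 listed genes), and with the 4 long-fragment libraries alone 1494 (35 listed genes), in both cases with all 495 members among them. Leaving out each library gave 617 to 965 regions and 20 to 28 listed genes against 17, with the highest counts without DMSO replicate 1 (965 and 28). The count was 928 without CB-6644 replicate 2 and 847 without CB-6644 replicate 3. Within 50 bp of the summit the shares were 12.7% for MAF, 7.27% for NF-kB, 27.7% for CAGGTG, 0.808% for ATF4-CEBP and 10.1% for AP-1, against 3.61, 2.03 and 19.1% of mixed regions for the first 3. Over whole regions CAGGTG reached 46.5% of members (42.1 to 50.9%), below the 52.3% of 6-library regions. The kB site was in 11.7% (9.17 to 14.8%) against 10.5%, and MAF in 20.6% against 11.9%. The 6-library regions were wider, with a median of 455 bp against 221 bp. Reversed consensus sequences gave 0% for MAF, whose reversed letters hold a CpG, 2.83% for NF-kB, 5.66% for CAGGTG, 0.808% for ATF4-CEBP and 5.86% for AP-1. With 1 start site per gene, chosen after seeing the data like the GC classes and the short-fragment comparison, there were 512 regions.

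The MAF, NF-kB, CAGGTG, IRF and ATF4-CEBP differences in shared distal regions kept their sign under each alternative run, and the groups overlapped in some of these for CAGGTG and IRF. The AP-1 difference of −0.0189 turned to 0.365 with percentiles of fold enrichment, 0.0115 with log2 fold enrichment, 0.0440 between the short-fragment libraries and 0.612 within GC classes, and ran from −0.304 to 0.200 with 1 library left out. Within GC classes the AP-1 groups did not overlap (exact permutation test, p = 0.1). The difference of nearest gene promoters turned from −0.558 to 0.613 with percentiles of fold enrichment and 0.0189 with log2 fold enrichment, and that of neighbouring regions from 1.13 to −0.653 at 10 kb. The cause of these changes was not tested. The deviations of same-numbered libraries from their group means had correlations of −0.380, −0.144 and 0.313. The highest correlation, 0.479, was between CB-6644 replicate 2 and DMSO replicate 1, the short-fragment libraries. Such values cannot show whether same-numbered libraries shared a culture or batch. A replicate block left the differences as they were, at 5.71 for MAF, with a smallest possible p of 0.25 (exact sign-flip test over 3 pairs). The lists hold no read totals, and the part of depth in a missing peak was not tested.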
